A study of Mus musculus with 6 samples.

Results

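Genes of the amino acid transporter families Slc1, Slc3, Slc6, Slc7, Slc36, Slc38 and Slc43 were followed in denervated gastrocnemius muscle of mice fed maslinic acid (MA), a triterpene of olives. The members were taken by symbol alone: every gene of these families that a probe set names without a second gene, which gave 54 genes among the 17097 genes that could be followed by name. Each gene was read at its brightest probe set, the one with the highest mean over the 6 arrays. The Slc1 family gave 6 members, Slc3 gave 2, Slc6 gave 16, Slc7 gave 15, Slc36 gave 3, Slc38 gave 9 and Slc43 gave 3.

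The study asked how MA in the diet affects the muscle that is lost after a nerve is cut. The MA group received the AIN-93G diet with 0.27% MA and the control group the same diet without it, 3 arrays each. Both groups were male ICR mice, 7 weeks old on arrival, which had 1 week of acclimatization and 1 week of their diet before surgery, in which the sciatic nerve was cut on both sides and a 5 mm piece of it taken out. The diets were continued, and the gastrocnemius was taken on day 14 after surgery. Both groups were thus denervated, and no array of an intact muscle was analysed here, so that no value below says what denervation itself did. The sources used here do not say how many mice stand behind the 3 arrays of each group, and the p-values therefore measure only the spread between these arrays.

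Amino acid transporters carry amino acids and related compounds through the membranes of cells and lysosomes. Sodium-coupled carriers such as those of Slc1, Slc6 and Slc38 can accumulate their substrates inside the cell, while many carriers of Slc7 exchange one amino acid for another and need a heavy chain of Slc3 to reach the membrane. Leucine, glutamine and arginine that enter this way feed protein synthesis and the sensing of amino acids by mTORC1, and muscle also takes up taurine and creatine through Slc6 carriers.

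Values are log2 intensities of RMA, the method that corrects the background of an array, equalizes the arrays and summarizes the probes of a probe set. Within a group the arrays correlated across probe sets with r of 0.9992 to 0.9997, and between groups with r of 0.9934 to 0.9937. The hybridization controls, transcripts of other organisms added to each sample, gave higher values in the MA arrays for 18 of 18 probe sets, with a median log2 difference of 0.17 and a largest one of 0.354, against a median absolute difference of 0.092 over the 54 members, and their part in the differences was not tested. Of 9 markers of skeletal muscle fibers all were above background and 6 were higher in the MA group, with a summed linear level of 41305 to 41446 in the MA arrays and 38405 to 38508 in the control arrays. Of 10 macrophage markers 8 were lower in the MA group, where their summed linear level was 1849 to 1899 against 3184 to 3253 in the control group, and Itgam was at background. Of 8 endothelial markers 7 were lower in the MA group, with a summed level of 316 to 323 against 359 to 380 in the control group, and Tie1 was at background. Of 7 fibroblast markers 3 were higher and 1 was lower, with a sum of 5482 to 5503 in the MA group and 4635 to 4705 in the control group, and Col1a2 was at background. The part of these cell types in the transporter values was not tested, and in RNA of a whole muscle fewer cells of a type and less RNA per cell cannot be told apart.

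With limma and the Benjamini-Hochberg adjustment over all 45037 probe sets tested, 18 of the 54 members rose and 9 fell in the MA group at an adjusted p under 0.05, while 27 did not pass. Thus 50% of the members passed in either direction, where 47.8% of all genes did, and 24.7% of all genes were higher and 23% were lower. The differences of the members were small, between -0.68 and 0.45 on the log2 scale with a median of 0.04, against a median of 0.006 over all genes. The 27 members that did not pass lay between -0.09 and 0.11, with a median standard error of 0.0295 over all members. With the fold over 1.2 that the methods of the study used added to the adjusted p, 2 members were higher and 3 were lower, where 5.92% of all genes were higher and 6.87% were lower by this rule. The arrays of both groups did not overlap at 30 members, 20 of them higher and 10 lower, and at 58.6% of all genes. In either direction the shares of members past these rules were thus near those of the array as a whole. At the adjusted p alone the share of members that rose was above that of all genes and the share that fell below it. This lean was not tested. The largest control for nonspecific binding with 3 to 24 G or C bases stood at 3.95, which is used as background here, and 36 members were above it in at least 1 group. Of these 36, 12 rose and 9 fell, where 57.2% of all genes above background passed in either direction. The other 18 members, at or under background in both groups, included 6 that passed, each higher in the MA group. Over all 17097 genes 4227 rose and 3938 fell, and over the 12342 above background 3508 rose and 3555 fell. The genes at or under background in both groups thus also passed more often as higher than as lower. For single members of these 18 the size of a difference is not given in the text.

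**Figure D1:**
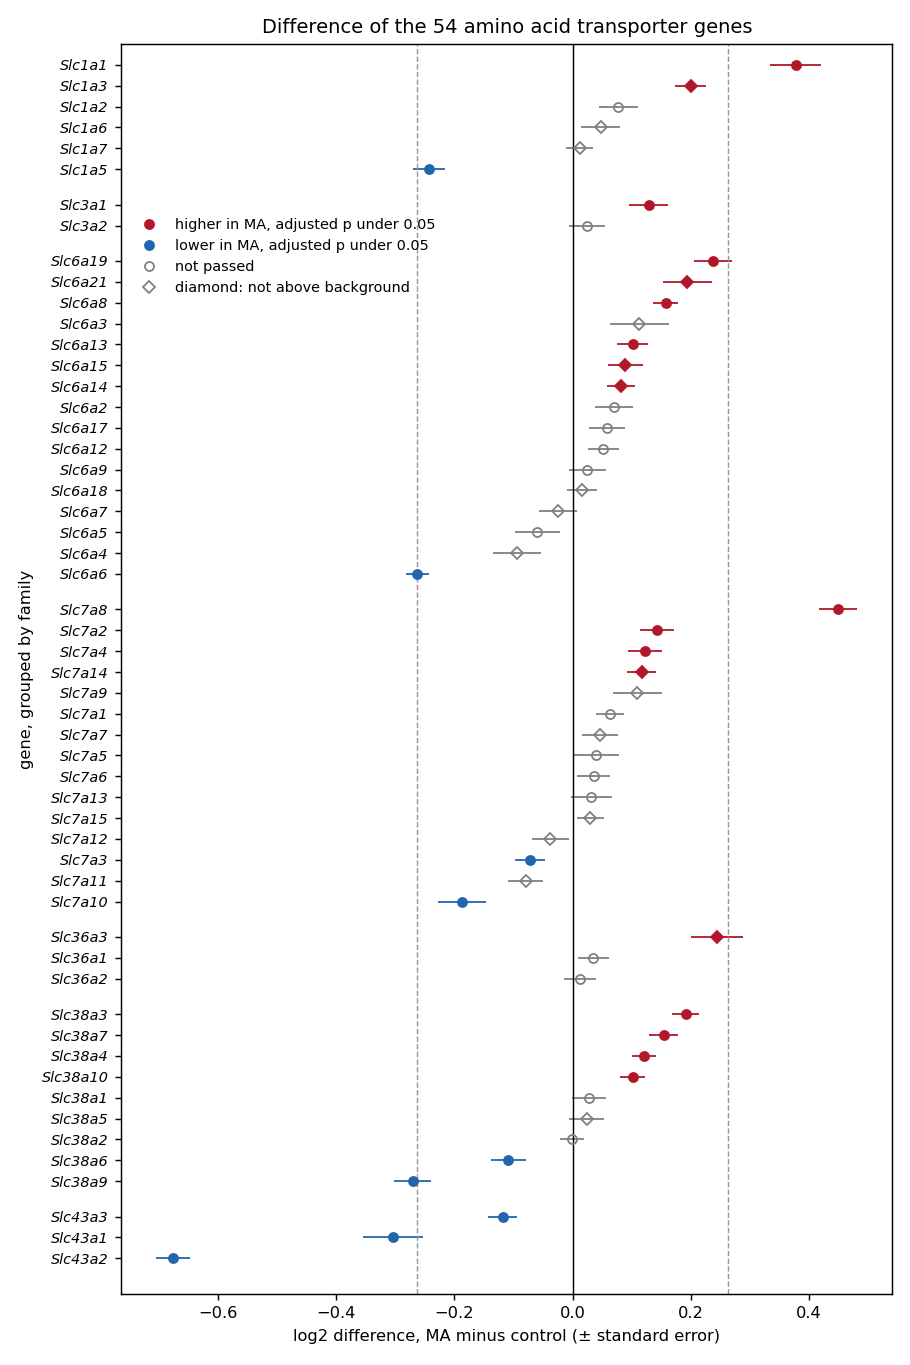
Log2 difference, MA minus control, of the 54 members at their brightest probe set, grouped by family, with the limma standard error as bars and a dashed line at a fold of 1.2 either way. Filled red points are higher and filled blue points lower in the MA group at an adjusted p under 0.05, open points did not pass, and diamonds were not above background. Slc7a8 at 0.45 and Slc1a1 at 0.38 lie to the right of the dashed lines, and Slc43a2 at -0.68, Slc43a1 at -0.30 and Slc38a9 at -0.27 to the left.

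The Slc43 family was lower in the MA group at 3 of 3 members, with a median log2 difference of -0.30. All 3 were above background, where 3555 of 12342 genes were lower. Slc43a2, which encodes LAT4, a carrier that lets leucine and other large neutral amino acids leave or enter a cell by facilitated diffusion, had log2 values of 7.21, 7.24 and 7.30 in the MA arrays and 7.90, 7.93 and 7.95 in the control arrays. Each MA array was thus below each control array, and the difference was -0.68 (standard error 0.0289, adjusted p = 6.26e-07), 1.60-fold lower in the MA group. All 3 probe sets of Slc43a2 fell, the brightest by 0.68, the next by 0.31 and the dimmest at values under background. Slc43a1, which encodes the related carrier LAT3, had 5.55, 5.54 and 5.54 in the MA arrays and 5.72, 5.95 and 5.87 in the control arrays. The control arrays were spread more widely (SD 0.114) than the MA arrays (SD 0.00574) but stayed above them, and Slc43a1 fell by 0.30 (standard error 0.0504, adjusted p = 0.00159) at its only probe set, 1.23-fold lower. Slc43a3, a family member known as a carrier of purine nucleobases and not of amino acids, had 4.76, 4.78 and 4.76 in the MA arrays and 4.87, 4.86 and 4.93 in the control arrays. It fell by 0.12 (adjusted p = 0.00548), again without overlap. Slc43a1 and Slc43a3 lie close together on chromosome 2, with 1 protein-coding gene between them in RefSeq, while Slc43a2 is on chromosome 11.

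**Figure D2:**
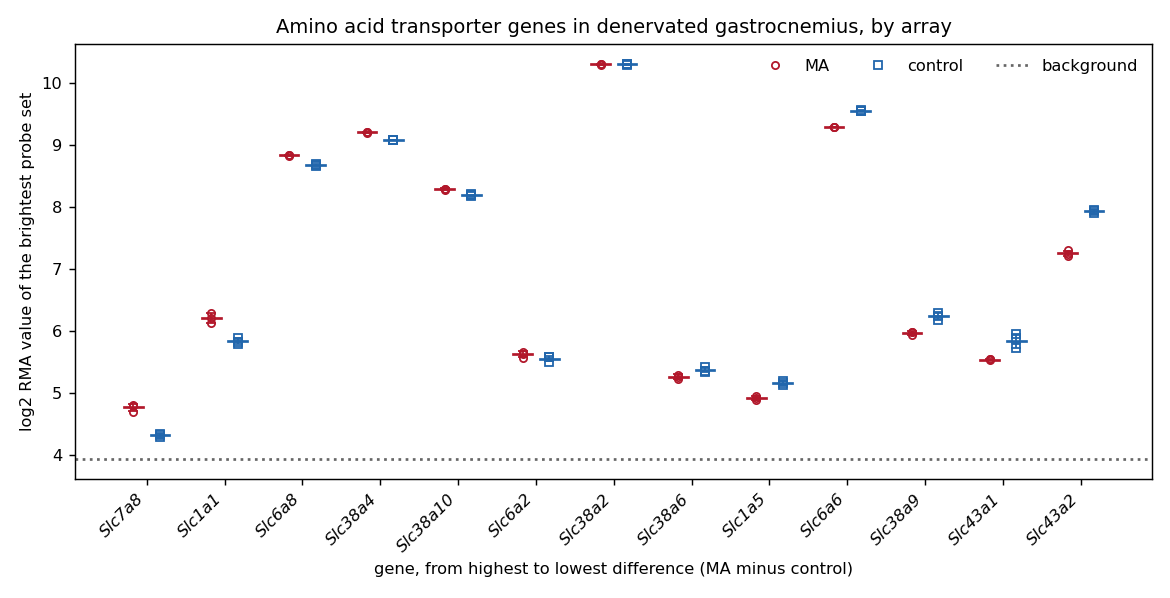
Log2 RMA value of the brightest probe set in each array for 13 members, MA arrays as red circles to the left of control arrays as blue squares, with the mean as a bar and the SD as whiskers (n = 3 each) and the background as a dotted line. Genes run from the highest to the lowest difference, and brightness is not comparable between genes. The MA arrays of Slc43a2 sit between 7.21 and 7.30, under its control arrays between 7.90 and 7.95, while the groups coincide at Slc38a2.

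Of the heavy chains and light chains of the heteromeric carriers, the light chain Slc7a8 showed the highest difference of all members. Slc7a8, which encodes LAT2, an exchanger of neutral amino acids including leucine, had 4.80, 4.70 and 4.81 in the MA arrays and 4.32, 4.35 and 4.30 in the control arrays. The groups did not overlap, and Slc7a8 rose by 0.45 (standard error 0.0328, adjusted p = 1.38e-05) at its only probe set, 1.37-fold higher. Slc7a5, which encodes LAT1, the leucine exchanger that takes the same heavy chain, had 6.74, 6.88 and 6.80 in the MA arrays and 6.77, 6.72 and 6.81 in the control arrays. These values overlapped, with a difference of 0.04 (adjusted p = 0.448). Slc3a2, the heavy chain CD98 itself, had 6.75, 6.85 and 6.83 in the MA arrays and 6.77, 6.79 and 6.79 in the control arrays, a difference of 0.02 (adjusted p = 0.548) with overlap. Slc3a1, the heavy chain rBAT of the kidney and intestine, rose by 0.13 (adjusted p = 0.014), with control arrays of 3.89, 3.91 and 3.96 at about background. Slc7a9, the light chain that pairs with rBAT, was at or under background in both groups and did not pass (adjusted p = 0.0623).

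Of the other Slc7 members, the cationic amino acid carriers differed by small amounts. Slc7a2, which encodes CAT2, a carrier of arginine and lysine, had 6.31, 6.37 and 6.39 in the MA arrays and 6.23, 6.18 and 6.23 in the control arrays. It rose by 0.14 (adjusted p = 0.00417) without overlap, and 3 of its 4 probe sets were higher. Slc7a1, which encodes CAT1, had 6.50, 6.55 and 6.51 in the MA arrays and 6.45, 6.47 and 6.46 in the control arrays. Its difference of 0.06 missed the threshold (adjusted p = 0.0546) although its groups did not overlap, and its other 2 probe sets were higher. Slc7a3, which encodes CAT3, fell by 0.07 with an adjusted p of 0.0493, just inside the threshold. Slc7a4, a relative of the cationic carriers, rose by 0.12 (adjusted p = 0.0105), while its dimmer probe set, under background, did not pass (adjusted p = 0.8995). Slc7a10, which encodes Asc-1, an exchanger of small neutral amino acids that is a marker of white adipocytes, had 5.04, 5.02 and 5.01 in the MA arrays and 5.27, 5.11 and 5.24 in the control arrays. It fell by 0.19 (adjusted p = 0.00632), and the 3 adipocyte markers measured went both ways. Adipoq, the adiponectin gene, was higher by 0.64 (adjusted p = 1.97e-07), Fabp4, also made by endothelial cells, was lower by 0.22 (adjusted p = 6.90e-05), and Lep was at background. Their summed linear level of 2131 to 2167 in the MA group and 2410 to 2445 in the control group is mostly that of Fabp4. The part of adipocytes in this difference was not tested. Slc7a11, the cystine and glutamate exchanger xCT and a textbook target of ATF4, was at background, with 3.56, 3.54 and 3.49 in the MA arrays and 3.59, 3.66 and 3.59 in the control arrays. The groups did not overlap, but Slc7a11 did not pass (adjusted p = 0.0626). Slc7a14 was higher under background (adjusted p = 0.00538). In all, 4 of the 15 Slc7 members rose, 2 fell and 9 did not pass. Thus 40% of them passed, where 47.8% of all genes did.

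Among the glutamate and neutral amino acid carriers of Slc1, 2 members rose, 1 fell and 3 did not pass. Thus 50% of them passed, where 47.8% of all genes did. Slc1a1, which encodes EAAT3, a carrier of glutamate, aspartate and cysteine, had 6.30, 6.21 and 6.13 in the MA arrays and 5.89, 5.83 and 5.79 in the control arrays. The groups did not overlap, and Slc1a1 rose by 0.38 (standard error 0.0431, adjusted p = 1.91e-04), 1.30-fold higher, with its dimmer probe set higher by 0.21. Slc1a3, the glutamate carrier EAAT1, was higher at values under background (adjusted p = 4.70e-04). Slc1a5, which encodes ASCT2, an exchanger of glutamine and other neutral amino acids, had 4.89, 4.92 and 4.96 in the MA arrays and 5.13, 5.17 and 5.20 in the control arrays. Each MA array was below each control array, and the brightest probe set fell by 0.24 (standard error 0.027, adjusted p = 1.64e-04). The only other probe set of Slc1a5 moved the other way, higher by 0.18 (adjusted p = 0.00386), so that the direction of this gene depends on the probe set read, and the mean of both gave -0.03 (adjusted p = 0.273).

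The Slc6 family, sodium- and chloride-coupled carriers of neurotransmitters, amino acids, taurine and creatine, had 6 members that rose, 1 that fell and 9 that did not pass. The share of this family that passed was 43.75%, against 47.8% of all genes. Slc6a6, the taurine carrier TauT, had 9.28, 9.29 and 9.29 in the MA arrays and 9.55, 9.54 and 9.55 in the control arrays. The groups were far apart compared with their SDs, 0.00415 over the MA arrays and 0.0063 over the control arrays, and Slc6a6 fell by 0.26 (standard error 0.0202, adjusted p = 1.84e-05), just short of a fold of 1.2. Its second probe set fell by 0.39 (adjusted p = 3.00e-06), and the 2 dimmest did not pass. Slc6a8, the creatine carrier, had 8.83, 8.82 and 8.84 in the MA arrays and 8.65, 8.68 and 8.68 in the control arrays. It rose by 0.16 (standard error 0.0213, adjusted p = 5.01e-04) at the brighter and by 0.16 at the dimmer of its 2 probe sets, without overlap of the groups. The taurine and the creatine carrier of these muscles thus differed in opposite directions. At the brightest probe sets each difference was smaller than the largest of a hybridization control, 0.354. At the second probe set of Slc6a6 the fall was 0.39. The part of the shift of these controls in either gene was not tested.

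The other Slc6 members that rose were dim. Slc6a19, which encodes B0AT1, the neutral amino acid carrier of kidney and intestine, had 4.58, 4.62 and 4.53 in the MA arrays and 4.38, 4.33 and 4.31 in the control arrays, higher by 0.24 (adjusted p = 4.88e-04). Slc6a13, the GABA and taurine carrier GAT2, rose by 0.10 (adjusted p = 0.0153) at about background. Slc6a14, Slc6a15 and Slc6a21 were higher at values not above background in both groups (adjusted p = 0.0252, 0.0387 and 0.00609). Slc6a2, the norepinephrine carrier of sympathetic nerve endings, had 5.67, 5.57 and 5.64 in the MA arrays and 5.58, 5.58 and 5.51 in the control arrays, which overlapped (difference 0.07, adjusted p = 0.112). Of its 4 probe sets 1 was higher and 1 lower, both under background. The glycine carrier Slc6a9, GlyT1, did not pass at a difference of 0.02 (adjusted p = 0.559), and the dopamine and serotonin carriers Slc6a3 and Slc6a4 were at background.

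Of the Slc38 family, which holds the sodium-coupled carriers of glutamine, alanine and other neutral amino acids, 4 members rose, 2 fell and 3 did not pass. Thus 66.7% of them passed, where 47.8% of all genes did. Of the 8 above background 6 passed, where 57.2% of all genes above background did. Whether these shares differ was not tested. Slc38a2, the system A carrier SNAT2, was alike in both groups, with 10.30, 10.30 and 10.28 in the MA arrays and 10.29, 10.30 and 10.30 in the control arrays. Its difference was -0.0009 with a standard error of 0.0203 (adjusted p = 0.977), and none of its 3 probe sets passed. Slc38a4, the related carrier SNAT4, had 9.20, 9.20 and 9.19 in the MA arrays and 9.08, 9.08 and 9.07 in the control arrays. It rose by 0.12 (standard error 0.0203, adjusted p = 0.00164) without overlap, and its second probe set, nearly as bright, rose by 0.31 (adjusted p = 2.94e-05), past a fold of 1.2. Slc38a1, SNAT1, did not pass at a difference of 0.03 (adjusted p = 0.468), while its other probe set, under background, was higher (adjusted p = 0.039). These 3 genes are direct neighbours on chromosome 15 in RefSeq, with no other protein-coding gene between them. Slc38a3, the glutamine carrier SNAT3, had 5.98, 5.98 and 5.94 in the MA arrays and 5.77, 5.77 and 5.79 in the control arrays. It rose by 0.19 (adjusted p = 2.43e-04), again without overlap, while its dimmer probe set did not pass at 0.03 (adjusted p = 0.722).

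The members of Slc38 and Slc36 that act at the lysosome did not share a direction. Slc38a9, the lysosomal arginine sensor and carrier that signals to mTORC1, had 5.99, 5.94 and 5.98 in the MA arrays and 6.19, 6.29 and 6.24 in the control arrays. The groups did not overlap, and Slc38a9 fell by 0.27 (standard error 0.0314, adjusted p = 2.08e-04), 1.21-fold lower. Of its other 3 probe sets, those at differences of -0.16 and -0.17 also fell and the one at 0.02 did not pass. Slc38a7, a lysosomal exporter of glutamine and asparagine, had 5.06, 5.03 and 5.06 in the MA arrays and 4.87, 4.93 and 4.89 in the control arrays. It rose by 0.15 (adjusted p = 0.00139). Slc36a1, the proton-coupled carrier PAT1 of lysosomes, did not pass at a difference of 0.04 (adjusted p = 0.301), nor did Slc36a2 at 0.01 (adjusted p = 0.731). Slc36a3, their neighbour on chromosome 11, was higher at values not above background (adjusted p = 0.00257).

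For 2 other Slc38 members the direction depended on the probe set. Slc38a10 had 8.28, 8.29 and 8.29 in the MA arrays and 8.17, 8.20 and 8.18 in the control arrays at its brightest probe set, which rose by 0.10 (standard error 0.0209, adjusted p = 0.00492). Over its 8 probe sets, 2 were higher, 2 were lower and 4 did not pass, with differences between -0.35 and 0.10, and the second brightest fell by 0.35 (adjusted p = 5.43e-06). Slc38a6 had 5.23, 5.30 and 5.27 in the MA arrays and 5.34, 5.36 and 5.42 in the control arrays, a fall of 0.11 (adjusted p = 0.018). Its second probe set, under background, was higher in the MA group (adjusted p = 0.00722), and without the first MA array or the third control array the adjusted p of the brightest was 0.0583 and 0.0601. With Slc1a5 and Slc6a2 this made 4 members with probe sets that passed in opposite directions, among the 25 members with 2 or more probe sets. The probe sets of a gene read different stretches of its transcripts, and which of them is right was not tested.

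**Figure D3:**
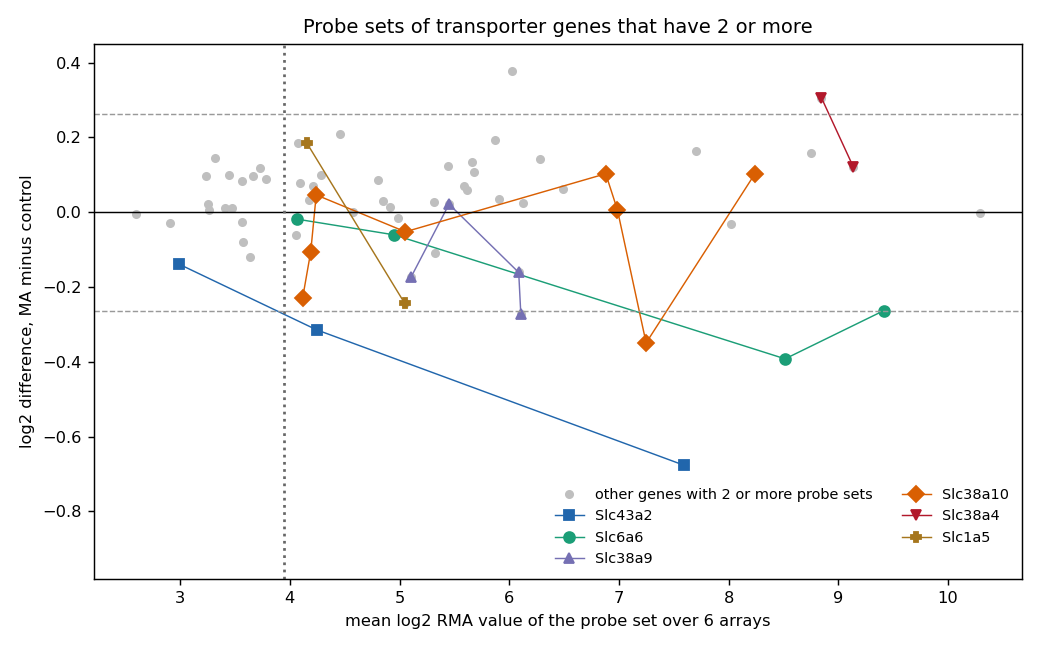
Each point is 1 probe set of a member that has 2 or more, with its mean log2 RMA value over the 6 arrays on the horizontal axis and its log2 difference, MA minus control, on the vertical axis. Lines join the probe sets of 6 named genes, the dotted line is the background and the dashed lines a fold of 1.2 either way. The 3 probe sets of Slc43a2 all lie below 0, while those of Slc38a10 run from -0.35 to 0.10 and those of Slc1a5 lie on both sides of 0.

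Promoter sequences from RefSeq, build GRCm38.p6, were at hand for 37 of the 54 members. They were searched for the amino acid response element TGATGNAA, the composite site of ATF4 and C/EBP factors in genes that respond to a shortage of amino acids, read on both strands (TTNCATCA on the other), in the 250 bases before the start. It was found in 4 of 58 promoters of members (6.9%), those of Slc7a11, Slc7a7 and Slc6a21, against 3.45% of all 32851 promoters. A match is a description of letters only. The stretch of Slc7a11 is shown because it holds the element in both directions, in capitals, starting at positions -66 and -47 from the start site. Those of Slc43a2 and Slc43a1 are shown as members that fell together, and that of Slc7a8 as the member with the highest difference. These hold no match. Each runs 5′ to 3′ on the strand of the gene and ends at the base before the start site, at chr3:50443614-50443863, minus strand, for Slc7a11, at chr11:75531444-75531693, plus strand, for the first of 2 promoters of Slc43a2, at chr2:84840073-84840322, plus strand, for Slc43a1, and at chr14:54781887-54782136, minus strand, for Slc7a8.
Slc7a11: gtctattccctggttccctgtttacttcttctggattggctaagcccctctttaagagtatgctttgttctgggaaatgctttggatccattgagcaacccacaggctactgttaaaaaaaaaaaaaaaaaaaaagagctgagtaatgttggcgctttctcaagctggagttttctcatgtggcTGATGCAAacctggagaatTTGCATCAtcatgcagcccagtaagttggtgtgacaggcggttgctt
Slc43a2: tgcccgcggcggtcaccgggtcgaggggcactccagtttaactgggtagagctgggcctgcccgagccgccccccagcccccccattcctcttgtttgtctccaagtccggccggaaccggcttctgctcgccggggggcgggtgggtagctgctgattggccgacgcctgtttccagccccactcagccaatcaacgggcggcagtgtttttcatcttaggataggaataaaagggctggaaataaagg
Slc43a1: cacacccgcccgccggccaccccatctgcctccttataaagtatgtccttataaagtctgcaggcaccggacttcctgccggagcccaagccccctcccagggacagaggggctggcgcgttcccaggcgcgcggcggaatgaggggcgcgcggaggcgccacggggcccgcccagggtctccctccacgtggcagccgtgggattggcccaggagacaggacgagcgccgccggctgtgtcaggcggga
Slc7a8: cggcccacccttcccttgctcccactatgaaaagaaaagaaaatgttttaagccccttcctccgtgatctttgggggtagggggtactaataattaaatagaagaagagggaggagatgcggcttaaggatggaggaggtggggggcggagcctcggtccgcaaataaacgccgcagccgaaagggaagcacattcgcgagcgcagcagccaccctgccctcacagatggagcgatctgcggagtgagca
Slc7a7, the light chain that exports cationic amino acids, and Slc6a21 were like Slc7a11 at or under background in both groups, so that among the 37 members searched none above background had the element in this window. Slc7a7 did not pass (adjusted p = 0.262). The G and C content of the stretches was 43.2% for Slc7a11, 62.8% for Slc43a2, 70.8% for Slc43a1 and 55.6% for Slc7a8.

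The sensing of amino acids by mTORC1 was followed in 29 measured genes, of which 11 rose, 6 fell and 12 did not pass, with a median difference of 0.06. All 29 were above background, and the share that passed, 58.6%, was near the 57.2% of all genes above background. Tbc1d7, a subunit of the TSC complex that restrains mTORC1, rose by 0.59 (adjusted p = 3.06e-06). The folliculin partners Fnip1 and Fnip2 differed in opposite directions, by 0.25 (adjusted p = 2.52e-05) and -0.31 (adjusted p = 6.90e-05). Mtor itself did not pass, at 0.02 (adjusted p = 0.369). Of the lysosomal partners of Slc38a9, which fell, the Ragulator subunits Lamtor1, Lamtor2 and Lamtor3 rose by 0.08, 0.21 and 0.23, while Lamtor4 and Lamtor5 did not pass at 0.07 and 0.06. Of the alternative Rag GTPases Rragc and Rragd the first fell by 0.12 and the other rose by 0.18 (adjusted p = 2.47e-04).

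Of 19 measured genes of the GCN2 and ATF4 response to amino acid shortage 6 rose, 4 fell and 9 did not pass, with a median of 0.04. The share that passed was 52.6%, against 47.8% of all genes. Of the 17 above background 9 passed, where 57.2% of all genes above background did. With a fold over 1.2 added, 3 of the 19 were higher and 3 were lower. By this rule 5.92% of all genes were higher and 6.87% were lower. Chac1, an enzyme that degrades glutathione, fell by 1.26 (adjusted p = 6.52e-09), Ddit4, an inhibitor of mTORC1, by 1.10 (adjusted p = 7.62e-09) and Cebpb, a transcription factor, by 0.81 (adjusted p = 3.19e-08). Psat1, the aminotransferase that makes phosphoserine, rose by 0.55 (adjusted p = 1.32e-05), Nupr1, a stress-induced chromatin protein, by 0.32 (adjusted p = 4.59e-04) and Vldlr, a lipoprotein receptor, by 0.30 (adjusted p = 1.29e-05). Phgdh, the first enzyme of serine synthesis, rose by 0.24 (adjusted p = 3.16e-04). Atf4 did not pass at 0.03 (adjusted p = 0.223), while Asns, the asparagine synthetase, rose by 0.15 (adjusted p = 0.0117).

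Of 20 other measured carriers of amino acids and peptides 7 rose, 4 fell and 9 did not pass, with a median of 0.006. The share that passed was 55%, against 47.8% of all genes. Of the 15 above background 9 passed, where 57.2% of all genes above background did. Both counts over the 20 were unsteady: 4 rose without the second MA array and 4 without the second control array, and 2 fell when dim probe sets were dropped. The lysosomal histidine and peptide carriers Slc15a4 and Slc15a3, known from immune cells, fell by 0.41 (adjusted p = 1.45e-05) and by 0.32 (adjusted p = 6.83e-06), with the MA arrays of Slc15a3 under background. The mean of Slc15a3 over the 6 arrays was under background too, so that the filter on dim probe sets drops it. The macrophage markers given above were lower in the same arrays, and their part in these falls was not tested. The mitochondrial aspartate and glutamate carrier Slc25a13 rose by 0.26 (adjusted p = 0.00279). Of 20 enzymes that make or use the transported substrates 7 rose, 5 fell and 8 did not pass, with a median of 0.06. The share passed was 60%, against 47.8% of all genes. Of the 17 enzymes above background 11 passed, where 57.2% of all genes above background did. Ckmt2, the mitochondrial creatine kinase of muscle, rose by 1.30 (adjusted p = 3.48e-09) and Gamt, the last enzyme of creatine synthesis, by 0.49 (adjusted p = 2.91e-05) with control arrays under background, beside the rise of the creatine carrier Slc6a8 by 0.16. Cdo1, a cysteine dioxygenase on the way to taurine, rose by 0.61 (adjusted p = 5.65e-07) and Csad, the next enzyme of that way, fell by 0.19 (adjusted p = 1.50e-04), beside the fall of the taurine carrier Slc6a6 by 0.26. The branched-chain keto acid dehydrogenase subunits Bckdhb and Dbt rose by 0.44 and 0.36 and Bckdha fell by 0.23, beside the fall of Slc43a2 by 0.68.

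**Figure D4:**
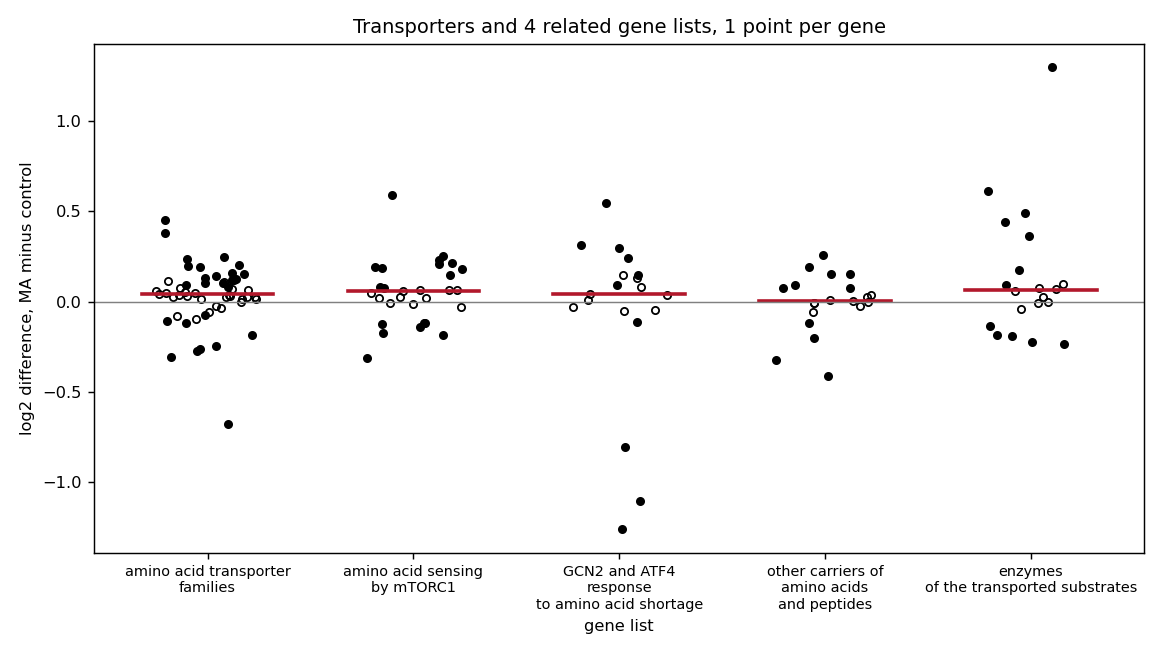
Log2 difference, MA minus control, of each measured gene of the transporter families and of 4 related lists, 1 point per gene at its brightest probe set, filled where the adjusted p was under 0.05 and open where it was not, with the median of each list as a red bar. The medians lie between 0.006 and 0.06, and 8 genes lie outside the range of the transporters, -0.68 to 0.45, with Chac1, Ddit4 and Cebpb below it and Ckmt2, Cdo1, Tbc1d7, Psat1 and Gamt above it.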

How the data were processed

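RNA of gastrocnemius muscle was measured on 6 Affymetrix GeneAtlas mouse arrays. After 3′ IVT labelling the authors ran RMA in Expression Console, so that each deposited value is a log2 intensity per probe set, which was used as it was. By their names the probe sets belong to the mouse array of the methods, while the design text names a human one, and the sources give different amounts of RNA used. The groups came from the titles of the samples, and 0 value columns had no sample. Of 45141 probe sets, 104 array controls were left out, and of the other 45037, 28898 named 1 gene, 551 several and 15588 none. The 4 probe sets that name Slc3a1 together with another gene were not used.

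The lmFit and eBayes functions of limma 3.58.1 in R 4.3.3 gave the difference of MA minus control per probe set, without covariates, with Benjamini-Hochberg adjustment over all 45037. A gene was read at its brightest probe set and said to rise or fall at an adjusted p under 0.05. Standard errors are those of limma. Background was the highest value of a nonspecific binding control with 3 to 24 G or C bases. The set with 25, which averaged 7.24, was left out, and 6 members were above it. With 3 arrays in each group no exact permutation test can go below 0.1, and the number of arrays limits the precision. The fit was tested on simulated data.

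Members given in full were those with an adjusted p under 0.05 and a fold over 1.2, those among the brightest 10% of probe sets and those with probe sets past the test in opposite directions, and of each other list the 3 called genes of largest difference. Other members are named with their values, and the other genes of the lists were named after their values were seen. The members and lists were chosen with earlier results of these data known. Alternatives tried were leaving out each array in turn, other probe sets of a gene, the methods' one-way test, array weights, a replicate block, dropping dim probe sets, median centring, a second quantile normalization, robust or trended moderation, and a fold over 1.5.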

Additional observations from a re-analysis of the deposited data

How the results depend on the processing

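Over the 17 settings the members that rose numbered 13 to 19 and those that fell 6 to 10. The one-way test of the methods gave 14 and 6, and the filter on dim probe sets, which leaves 36 members, 13 and 9. Of 206 values of the 13 members given in full, 197 kept their side of the threshold, 5 lost the call and 4 reversed. A change of sign was counted as a reversal only where the value before or after it passed. Slc38a2, which passed in no setting, thus changed sign uncounted. It gave 0.004 without the third MA array, 5e-05 without the second control array and 0.00105 without the third. All 4 reversals came with the probe set read: the second brightest gave 0.18 for Slc1a5, -0.35 for Slc38a10 and 0.10 for Slc38a6, and the mean of all probe sets gave -0.0597 for Slc38a10 (adjusted p = 0.0266). The calls lost were those of Slc1a5 with the mean of its probe sets and of Slc38a6 with that mean (adjusted p = 0.868), with the one-way test (adjusted p = 0.0669) and without the first MA or the third control array. The mean of all probe sets also brought Slc43a2 to -0.38, Slc38a9 to -0.15 and Slc38a4 to 0.21. The median of the members was 0.0597 after quantile normalization again and 0.037 to 0.0549 when each array was left out, the highest of these without the third MA array. The cause was not tested. With a fold over 1.5 in place of 1.2, 0 members were higher and 1, Slc43a2, was lower. The other carriers that rose numbered 7 in all arrays and 4 to 6 with 1 array left out, 4 without the second MA array and 4 without the second control array. The filter on dim probe sets gave 2 that fell in place of 4. It drops Slc15a2, Slc15a3 and Slc25a2, which fell without it and have means of 3.92, 3.81 and 3.73, under background. Of the 4 it leaves only Slc15a4, so that the 2 include a carrier that did not pass without the filter. With a replicate block 18 members rose and 10 fell, and 8339 genes passed in place of 8165. The deviations of arrays with the same number correlated with r = 0.188, 0.0416 and 0.142, and the second MA array correlated best with the third control array (0.0698), so that the numbers were not taken to pair the arrays. At 40.5% of all probe sets the mean was at or under background.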
